A study of Oryza sativa with 6 samples.

Results

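The genes described here are 43 jasmonate, ethylene and WRKY regulators of rice roots, out of 14662 rice genes with a probe set of their own on the arrays. They were chosen by name: each has a symbol or RefSeq synonym of a TIFY or JAZ protein, a lipoxygenase (LOX), an allene oxide cyclase (AOC), an OPDA reductase (OPR), an ACC synthase (ACS) or oxidase (ACO), an EIL, ERF or EREBP factor, or a WRKY factor, followed by a number where the family is numbered. The naming rule uses no measured value, but the families were picked with earlier results of these data known. Each of the 43 genes had 1 probe set, and 0 genes named AOS (allene oxide synthase) had a probe set of their own, so that step of jasmonate synthesis is not covered.

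The roots were those of the rice (Oryza sativa) cultivar Swarna MTU7029 at an age of 3 weeks, when the plants were given a suspension of the yeast Rhodotorula mucilaginosa JGTA-S1, a pigmented basidiomycete. All plants were grown untreated until then. Roots taken at 0 h, labelled as receiving no treatment, were the control, and roots taken 6 h and 24 h after the yeast were the treated groups, with 2 arrays at each time and 6 in all. No array comes from yeast-free roots of the later times, so the yeast and the elapsed time cannot be told apart in any difference from 0 h. Whether the pair of arrays at each time represents different plants is not stated in the labels, so the p-values reflect array-to-array spread that may be technical.

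Jasmonate is a lipid-derived hormone of wounding and defence: lipoxygenases, allene oxide synthase, allene oxide cyclase and an OPDA reductase make its precursors from plastid fatty acids. JAZ proteins, which belong to the TIFY family, hold MYC-type transcription factors in check until the conjugated hormone joins them to the receptor COI1 and they are degraded, and in many plants JAZ genes are themselves switched on by the hormone, which makes a feedback loop. Ethylene is made by ACC synthases and ACC oxidases, and its signal reaches the nucleus through EIN2 and the EIL factors, which switch on ERF genes. WRKY factors bind W-box DNA and both promote and restrain immune responses.

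Values are deposited signals on a log2 scale, so a difference of 1 is a factor of 2 in signal. The arrays had medians between 2.79 and 2.93, but the spread over probe sets was narrower on the 0 h arrays (SD 1.50 and 1.46) than on the treated ones (1.62 to 1.82), and the 0 h arrays correlated with each other at 0.868, against 0.936 at 6 h and 0.976 at 24 h. Of the 43 genes, 36 lay above the array median on all 6 arrays and 0 lay below it on all 6. Signals of 9 root genes ran from 2.07 to 9.17. The brightest were the silicon transporter Lsi2, between 8.78 and 9.17, and the phosphate transporter OsPht1;8, between 8.02 and 8.31. Among the dimmest, OsPht1;6 lay between 2.07 and 3.28 and OsAMT1;3 between 2.51 and 3.57, so root and shoot signals overlapped. Of 3 green shoot markers, the chlorophyll-binding protein CAB1R lay between 4.59 and 5.93, CAB2R between 2.88 and 5.13 and OsrbcS, the small subunit of Rubisco, between 2.46 and 3.68. The distance of these shoot signals from background is not known, and their part in the results was not tested.

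Of the 43 genes, 1 rose at 6 h and the same 1 rose at 24 h, the JAZ repressor gene OsTIFY10a, and 0 fell. Passing means a limma adjusted p under 0.05 over all 41770 probe sets, a mark reached by 1.53% of probe sets at 6 h (1.39% higher, 0.144% lower) and by 2.21% at 24 h (1.98% higher, 0.237% lower). Among genes with a probe set of their own it was reached by 2.20% and 3.08%, so 1 of 43 is a share near the background. At 24 h against 6 h 0 of 43 passed, where the background is 0.0% of probe sets. In that last comparison 0 of the 43 genes also had an unadjusted limma p under 0.05, while 1.76% of probe sets were higher and 0.869% lower at that mark.

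As a group the 43 genes read higher after the yeast on the deposited scale. At 6 h 32 read higher and 11 lower than at 0 h, with a median log2 difference of 0.43 against 0.20 over all 14662 genes, of which 61.4% read higher (46.0% of all probe sets). At 24 h 35 read higher and 8 lower, with a median of 0.43 against 0.26 over all genes, of which 64.3% read higher (47.5% of all probe sets). Both 6 h arrays lay above both 0 h arrays for 19 of the genes and below them for 3, where 22.4% of probe sets lay above and 23.3% below. At 24 h the counts were 21 above and 4 below, against 28.4% and 28.0%. Among all 14662 genes 34.3% lay above at 6 h and 42.6% at 24 h. In whole roots, fewer cells of a type and less RNA per cell cannot be told apart.

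This upward lean depended on scaling. After quantile normalization, which gives all arrays the same spread, 23 of the 43 genes read higher at 6 h and 21 at 24 h, with medians of 0.11 and -0.03, and after cyclic loess 22 and 20 read higher, with medians of 0.04 and -0.06. The median over 1-gene probe sets moved as well, from 0.19 to 0.10 at 6 h and from 0.26 to 0.10 at 24 h after quantile normalization. Where the treated arrays of any of these 43 genes did not overlap its control arrays, the difference after quantile normalization is therefore given as well.

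**Figure D1:**
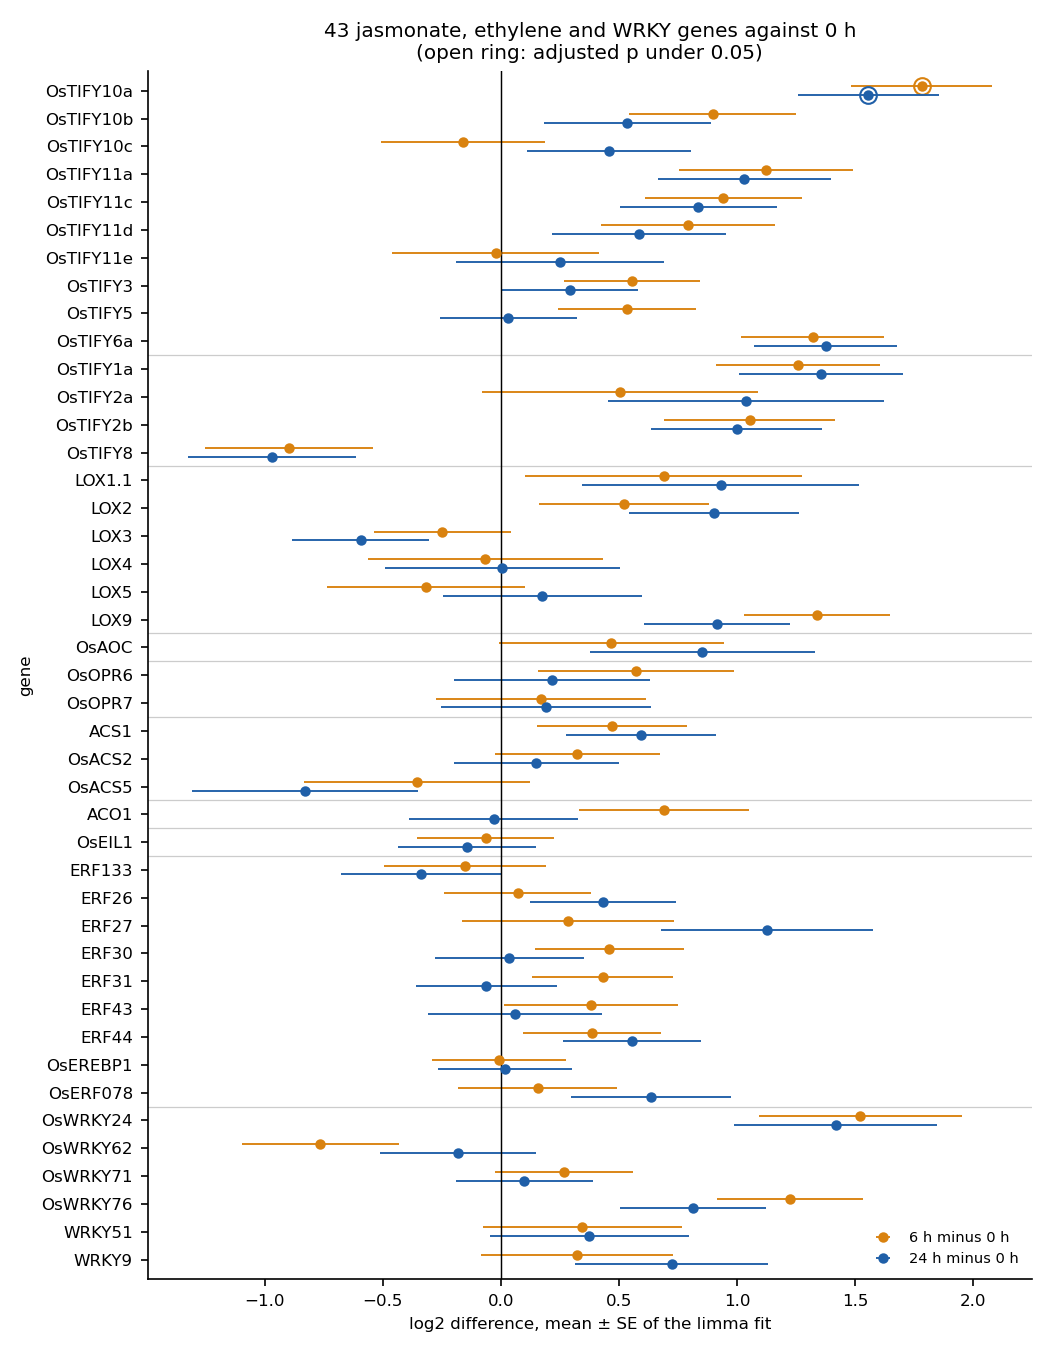
Log2 difference from 0 h (x axis) of each of the 43 genes (y axis, grouped by family) at 6 h and at 24 h, as points with bars for the SE of the limma fit over all 6 arrays, 2 per time. OsTIFY10a, ringed at both times, is the gene that passed, at 1.78 and 1.56.

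Of the families, the JAZ repressors included the gene that rose. Of 10 JAZ genes 8 read higher at 6 h and 10 at 24 h, with medians of 0.84 and 0.56 and 1 that rose, and 8 read higher at both times after quantile normalization (medians 0.44 and 0.22) and after cyclic loess (0.42 and 0.17). Both 6 h arrays lay above both 0 h arrays for 8 of the 10, and both 24 h arrays for 6 of the 10, against 34.3% and 42.6% of all genes. Without the first 0 h array the medians were 0.81 and 0.74, and without the second 0.66 and 0.63.

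OsTIFY10a (LOC4333065, also listed as OsJAZ6) had signals of 5.99 and 5.77 at 0 h, 7.69 and 7.63 at 6 h, and 7.28 and 7.60 at 24 h. All 4 treated arrays lay well above the control arrays, and the gap was several times that between arrays of a time. The difference was 1.78 ± 0.30 at 6 h (SE, n = 2 arrays per time, 3.44-fold, limma adjusted p = 0.0358) and 1.56 ± 0.30 at 24 h (2.94-fold, adjusted p = 0.0450). Between 24 h and 6 h it differed by -0.22 ± 0.30. After quantile normalization the differences were 1.32 and 1.06 (limma adjusted p = 0.113 and 0.171), so the direction held and the call did not. Over 13 alternatives the 6 h difference ran from 1.31 to 1.90 and the 24 h difference from 1.06 to 1.72, and 4 of the 13 passed at each time. The call was lost without any single array other than the first 0 h array, with an adjusted p of up to 0.203 at 6 h and 0.404 at 24 h.

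OsTIFY6a (LOC4345625), another JAZ repressor gene, came next among the JAZ genes. Its signals were 4.41 and 4.27 at 0 h, 5.56 and 5.77 at 6 h, and 5.52 and 5.91 at 24 h, with no overlap between control and treated arrays. It differed by 1.32 ± 0.30 at 6 h (limma adjusted p = 0.0741) and by 1.37 ± 0.30 at 24 h (adjusted p = 0.0593) and passed at neither time. After quantile normalization the differences were 0.81 and 0.76. At 24 h it passed with median centring (1.45, adjusted p = 0.0477) and with the dimmest probe sets left out (adjusted p = 0.0494).

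OsTIFY11a and OsTIFY11c lie side by side on the chromosome, with 0 protein-coding genes between them in the RefSeq gene order. OsTIFY11a (LOC4331832) had signals of 5.55 and 4.62 at 0 h, 6.10 and 6.32 at 6 h, and 6.14 and 6.09 at 24 h. OsTIFY11c (LOC4331833) had 5.46 and 5.17, then 6.41 and 6.11, then 5.86 and 6.45. Treated arrays lay above control arrays for both genes, by 1.12 ± 0.37 and 0.94 ± 0.33 at 6 h and by 1.03 ± 0.37 and 0.84 ± 0.33 at 24 h, and neither gene passed. After quantile normalization the differences were 0.56 and 0.37 at 6 h and 0.41 and 0.20 at 24 h. The second 0 h array was the lower for both, and without the first 0 h array OsTIFY11a passed at 6 h (1.59, limma adjusted p = 0.0414) and at 24 h (1.49, adjusted p = 0.0428). Without the second 0 h array its differences were 0.66 and 0.57 (adjusted p = 0.303 and 0.354).

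OsTIFY11e and OsTIFY11d form a second neighbouring pair, with 2 protein-coding genes between them, and read apart from each other. OsTIFY11d (LOC4348533) had 5.77 and 6.69 at 0 h, 7.15 and 6.88 at 6 h, and 6.84 and 6.78 at 24 h. OsTIFY11e (LOC4348531, OsJAZ13) had 7.63 and 7.03, then 7.82 and 6.80, then 7.91 and 7.26, with full overlap of the times. OsTIFY11d differed by 0.79 ± 0.37 at 6 h (0.31 after quantile normalization) and by 0.58 at 24 h (0.07 after quantile normalization). The 6 h difference of OsTIFY11e was -0.02 ± 0.44. Its 95% interval runs from -1.03 to 0.99 and so leaves room for a 2-fold change either way.

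The remaining JAZ genes gave smaller differences. OsTIFY10b had 7.18 and 6.39 at 0 h, 7.80 and 7.57 at 6 h and 7.17 and 7.48 at 24 h, above control at 6 h (0.90 ± 0.35, and 0.51 after quantile normalization) and overlapping it at 24 h (0.54 ± 0.35). OsTIFY3, known from the extra glume mutant of the rice flower as EG2, had 6.69 and 6.92, then 7.38 and 7.34, then 7.15 and 7.04. Its treated arrays all lay above the control ones, by 0.55 ± 0.29 and 0.29 ± 0.29. After quantile normalization the 6 h value was 0.15 and the 24 h value read lower (-0.15). OsTIFY5 had 2.47 and 2.48, then 3.05 and 2.97, then 2.35 and 2.67, above control at 6 h alone (0.53 ± 0.29, and 0.74 after quantile normalization). OsTIFY10c, at 3.04 and 3.56, then 3.26 and 3.02, then 4.06 and 3.46, overlapped at both times (-0.16 ± 0.35 and 0.46 ± 0.35). None of these 4 passed.

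**Figure D2:**
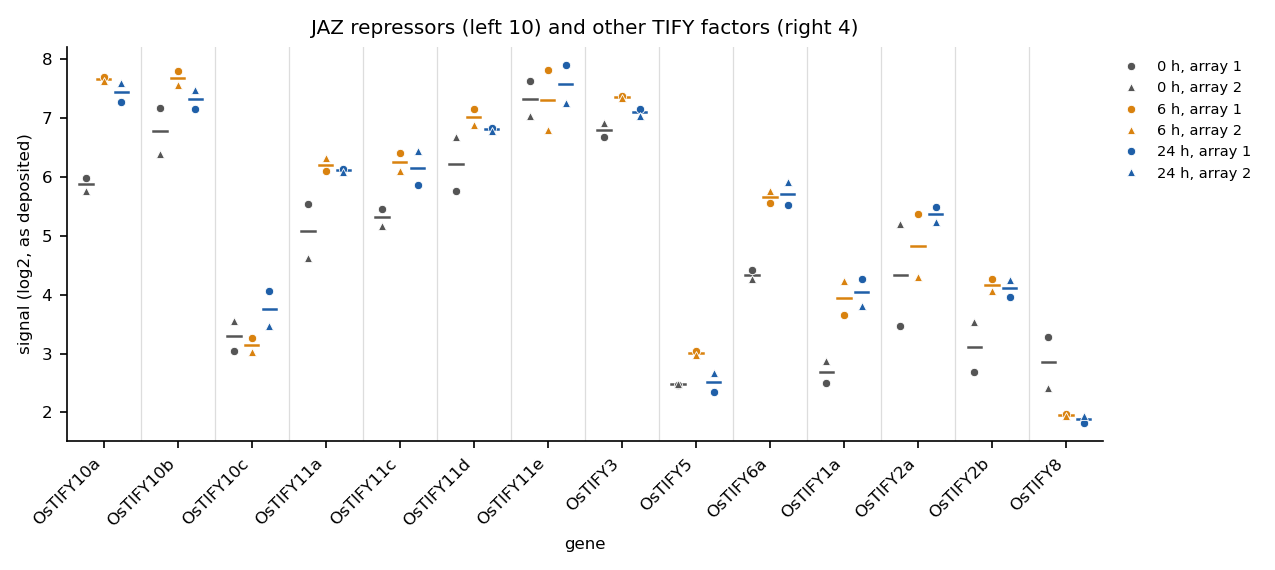
Deposited log2 signal (y axis) of the 14 TIFY genes (x axis) on each array, with circles for the first and triangles for the second array of a time and a short line at the mean of the 2 arrays. The treated arrays of OsTIFY10a, 7.28 to 7.69, all lie above its control arrays at 5.99 and 5.77, while the arrays of OsTIFY11e overlap.

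Outside the JAZ class, 4 TIFY genes were measured, and 0 of them passed at 6 h or 24 h. OsTIFY1a, OsTIFY2a and OsTIFY2b encode factors that join the TIFY motif to a GATA-type zinc finger and carry GATA names as well. OsTIFY1a (LOC4333738) had 2.50 and 2.87 at 0 h, 3.66 and 4.23 at 6 h, and 4.27 and 3.81 at 24 h, and all treated arrays lay above the control ones. The differences were 1.26 ± 0.35 (limma adjusted p = 0.110) and 1.36 ± 0.35 (adjusted p = 0.0861), and 1.39 and 1.29 after quantile normalization, close to the deposited values. Its control signals lay below the medians of the 0 h arrays (2.91 and 2.93), and their distance from background is unknown.

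OsTIFY2b (LOC4341953) had 2.68 and 3.54 at 0 h, 4.26 and 4.06 at 6 h, and 3.97 and 4.25 at 24 h, above control on every treated array (1.05 ± 0.36 and 1.00 ± 0.36, or 0.99 and 0.79 after quantile normalization). OsTIFY2a had 3.46 and 5.20, then 5.37 and 4.30, then 5.50 and 5.24, and the 2 control arrays differed by more than the times did (0.50 ± 0.58 and 1.04 ± 0.58, or 0.11 and 0.49 after quantile normalization). OsTIFY8 (LOC4330630) went the other way, with 3.29 and 2.41 at 0 h, 1.97 and 1.94 at 6 h, and 1.82 and 1.95 at 24 h. Its treated arrays lay below the control ones by -0.90 ± 0.36 and -0.97 ± 0.36 (limma adjusted p = 0.226 and 0.176) and by -0.80 and -0.78 after quantile normalization. It was among the 3 genes of the 43 with a signal below the lower quartile of an array, where the distance from background is unknown.

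A comparison of both treated times together with 0 h, added after these values were seen, used 4 treated arrays against 2. In it 3 of the 43 genes rose, each a TIFY gene, and 0 fell, where 4.4% of probe sets passed as higher and 1.11% as lower. Among the 14662 genes 7.21% passed as higher, so 3 of 43 is a share near the background. They were OsTIFY10a (1.67 ± 0.26, limma adjusted p = 0.0175), OsTIFY6a (1.35 ± 0.26, adjusted p = 0.0307) and OsTIFY1a (1.31 ± 0.30, adjusted p = 0.0466). After quantile normalization 0 of the 43 passed, with adjusted p = 0.0739, 0.194 and 0.0979 for these genes and values of 1.19, 0.79 and 1.34. With cyclic loess, or without the first 6 h array or either 24 h array, 0 passed as well, and without the second 6 h array 1 did. Without the second 0 h array 5 passed, and with median centring 6. OsTIFY1a also lost its call with an intensity trend and robust estimation (limma adjusted p = 0.0529) and with a replicate block (adjusted p = 0.0584). The comparison of both times shares its control arrays with both single comparisons and is no separate support for them.

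Of 9 LOX, AOC and OPR genes, grouped by family name as jasmonate synthesis, 0 passed at either time. Whether each of the 9 acts in jasmonate synthesis was not tested. At 6 h 6 of the 9 read higher and 3 lower (median 0.47), and at 24 h 8 read higher and 1 lower (median 0.22), but 4 read higher at each time after quantile normalization, with medians of -0.01 and -0.14. Without overlap, 1 enzyme lay above and 1 below control at 6 h, where 34.3% and 14.6% of all genes did, and 3 above and 1 below at 24 h, where 42.6% and 16.3% did.

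Lipoxygenases add oxygen to fatty acids, and only those of the plastid that act on carbon 13 feed jasmonate synthesis. LOX9 (LOC4345994), also named CM-LOX2, had signals of 2.096 and 2.39 at 0 h, 3.43 and 3.73 at 6 h, and 3.31 and 3.01 at 24 h. Every treated array lay above both control arrays, by 1.34 ± 0.31 at 6 h (limma adjusted p = 0.0747) and 0.92 ± 0.31 at 24 h (adjusted p = 0.148). The values grew after quantile normalization, to 1.55 and 1.05, and it did not pass there either (adjusted p = 0.105 and 0.199). Its control signals were low, and 1 of them lay below the lower quartile of its array.

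LOX3 (LOC4333818), also named r9-LOX1, read lower after the yeast. It had 7.98 and 7.90 at 0 h, 7.82 and 7.57 at 6 h, and 7.41 and 7.29 at 24 h, with no overlap at either time. The differences were -0.25 ± 0.29 and -0.59 ± 0.29 (limma adjusted p = 0.675 and 0.278), and -0.51 and -0.91 after quantile normalization. LOX4 and LOX5 lie near it, with 3 protein-coding genes between LOX3 and LOX4 and 1 between LOX4 and LOX5. They had 4.65 and 6.00, then 5.56 and 4.97, then 4.95 and 5.71 for LOX4, and 7.47 and 6.81, then 7.35 and 6.29, then 7.24 and 7.39 for LOX5. In these genes the arrays of 1 time differed by more than the times, and both overlapped at 6 h and 24 h.

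LOX2 (LOC4331824) had 4.12 and 3.59 at 0 h, 4.71 and 4.04 at 6 h, and 4.91 and 4.61 at 24 h, so that the 24 h arrays alone cleared the control ones (0.90 ± 0.36, limma adjusted p = 0.202, and 0.43 after quantile normalization). LOX1.1 (LOC4334049) rested on which control array was read: it had 4.46 and 6.50 at 0 h, the widest gap between arrays of a time among the 43 genes, and 6.30 and 6.04, then 6.31 and 6.51 later. Its 24 h difference of 0.93 ± 0.59 became -0.09 without the first 0 h array and 1.95 without the second (limma adjusted p = 0.0386).

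OsAOC (LOC4333201), the allene oxide cyclase gene mutated in the jasmonate-deficient rice lines cpm2 and hebiba, had 6.66 and 5.62 at 0 h, 7.18 and 6.04 at 6 h, and 6.94 and 7.05 at 24 h. The 24 h arrays lay above both control arrays (0.85 ± 0.48, limma adjusted p = 0.334, and 0.34 after quantile normalization), and the 6 h arrays overlapped them (0.47 ± 0.48). OsOPR7 (LOC4345762), the rice OPDA reductase known to act in jasmonate synthesis, had 5.21 and 4.59, then 5.68 and 4.47, then 5.22 and 4.97, and differed by 0.17 ± 0.44 and 0.19 ± 0.44. OsOPR6 had 3.76 and 3.70, then 4.86 and 3.75, then 3.68 and 4.22. Both OPR genes overlapped control at both times, and the 95% interval of OsOPR7 at 6 h, from -0.85 to 1.19, covers changes of nearly 2-fold in either direction.

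The 2 arrays at 6 h differed from each other in several of these LOX, AOC and OPR genes. The first exceeded the second by 1.06 for LOX5, 1.14 for OsAOC, 1.11 for OsOPR6 and 1.21 for OsOPR7, all larger than the difference of those genes from 0 h. Over the 43 genes 6 were higher by more than 1 on the first 6 h array and 1 on the second, where 6.4% and 5.22% of probe sets were, and the other genes concerned were OsTIFY11e, OsTIFY2a and OsACS5. At 0 h the arrays lay more than 1 apart for 6 of the 43 (OsTIFY2a, LOX1.1, LOX4, OsAOC, ERF27 and WRKY51), where the background is 17.4% of probe sets, and at 24 h for 0, where it is 1.97%. These genes were named after their values were seen.

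**Figure D3:**
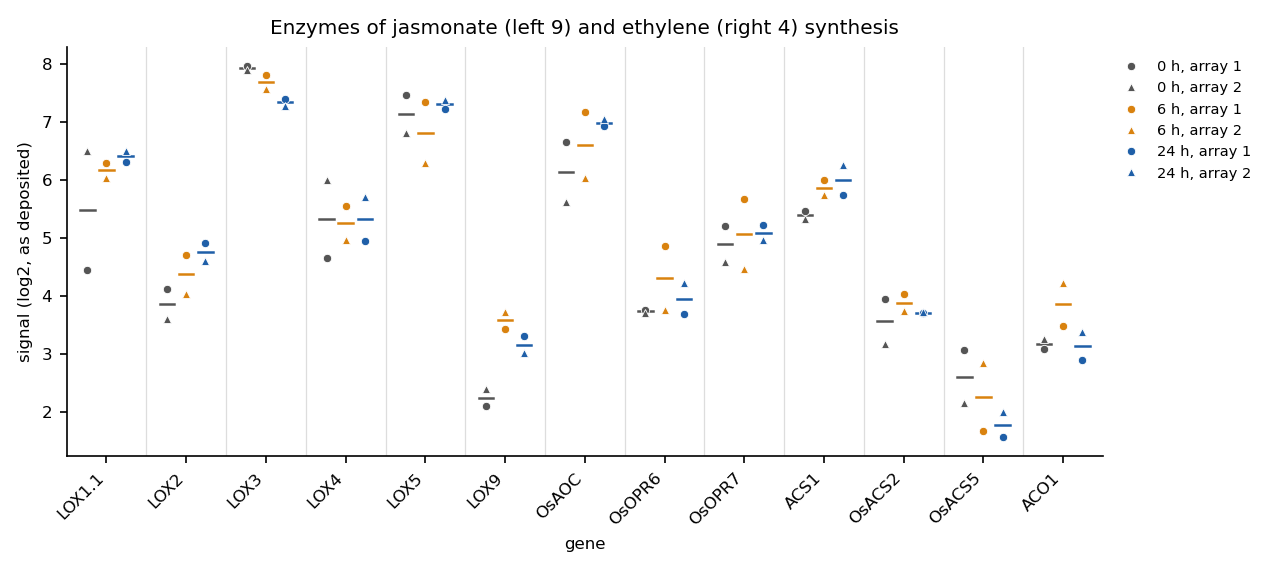
Deposited log2 signal (y axis) of 9 LOX, AOC and OPR genes, grouped by name as jasmonate synthesis, and 4 of ethylene synthesis (x axis) on each array. Circles mark the first and triangles the second array of a time, with a short line at the mean of the 2 arrays. The first and second 6 h arrays of OsAOC lie at 7.18 and 6.04, wider apart than the means of any 2 times, and all treated arrays of LOX9 lie above its control arrays at 2.096 and 2.39.

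Ethylene synthesis and signalling gave no gene that passed. ACS1 (LOC4333976), an ACC synthase, the step that usually limits ethylene production, had 5.47 and 5.34 at 0 h, 6.01 and 5.74 at 6 h, and 5.74 and 6.25 at 24 h. Its treated arrays all lay above the control ones (0.47 ± 0.32 and 0.59 ± 0.32), but after quantile normalization the differences were -0.09 and -0.05, so no direction holds. OsACS2 had 3.95 and 3.17, then 4.03 and 3.74, then 3.71 and 3.72, overlapping control at both times. OsACS5 (LOC4327307) had 3.06 and 2.14, then 1.66 and 2.84, then 1.56 and 1.99, below control at 24 h by -0.83 ± 0.48 (-0.58 after quantile normalization). On the first 6 h and first 24 h arrays OsACS5 lay below the lower quartile of the array, where the distance from background is unknown.

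ACO1 (LOC4347225), an ACC oxidase of the last step to ethylene, was higher at 6 h than at either other time. It had 3.08 and 3.25 at 0 h, 3.48 and 4.23 at 6 h, and 2.90 and 3.37 at 24 h. Both 6 h arrays lay above all other arrays, by 0.69 ± 0.36 over 0 h (limma adjusted p = 0.335, and 0.70 after quantile normalization), while 24 h differed from 0 h by -0.03 ± 0.36. From 6 h to 24 h it differed by -0.72 ± 0.36, which did not pass.

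OsEIL1 (LOC4332697), the master transcription factor of ethylene signalling in rice, varied little, with 8.11 and 8.07 at 0 h, 8.18 and 7.88 at 6 h, and 7.93 and 7.97 at 24 h. It differed by -0.06 ± 0.29 (95% interval -0.73 to 0.60) and -0.14 ± 0.29 (-0.81 to 0.53), intervals that reach just short of a factor of 2. The 24 h arrays lay below the control arrays by a margin smaller than the gap between the 6 h arrays. After quantile normalization the differences were -0.33 and -0.41.

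Among 9 ERF genes 0 passed, with 7 reading higher at each time on the deposited scale (medians 0.28 and 0.06) and 3 after quantile normalization. Of these, 5 carry DREB1 names and 2 DREB2 names, classes known from cold and drought responses rather than from ethylene. OsEREBP1 (LOC4330935), a GCC-box binding factor known as a target of a defence MAP kinase, lay between 7.98 and 8.13 on all 6 arrays and differed by -0.01 ± 0.28 and 0.02 ± 0.28. ERF27 (LOC4323832, DREB1F) had 5.41 and 4.27 at 0 h, 5.49 and 4.77 at 6 h, and 5.77 and 6.17 at 24 h. Its 24 h arrays alone lay above both control arrays (1.13 ± 0.45, limma adjusted p = 0.200, and 0.52 after quantile normalization), and the control arrays lay more than 1 apart.

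ERF31 (DREB1B) and its direct neighbour ERF133 (DREB1H), with 0 protein-coding genes between them, differed by 0.43 and -0.15 at 6 h. ERF31 had 7.86 and 7.90, then 8.36 and 8.26, then 7.63 and 8.01, above control at 6 h by 0.43 ± 0.30 (0.16 after quantile normalization) and on either side of the control arrays at 24 h. ERF133 had 7.04 and 6.68, then 6.64 and 6.77, then 6.18 and 6.87, with overlap throughout. ERF30 (DREB1E) had 6.54 and 6.33, then 6.73 and 7.06, then 6.25 and 6.69, so its 6 h arrays lay above control by 0.46 ± 0.32, but by -0.03 after quantile normalization, and no direction holds. ERF26 (DREB1C) had 6.71 and 7.21, then 7.08 and 6.98, then 7.32 and 7.46, and its 24 h arrays lay above control by 0.43 ± 0.31, but the difference was 0.03 with quantile normalization and turned to -0.05 with cyclic loess.

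The other ERF genes gave small differences. ERF44 (DREB2C) had 4.14 and 4.39, then 4.76 and 4.55, then 4.80 and 4.84, above control on every treated array by 0.39 ± 0.29 and 0.56 ± 0.29, which became -0.04 and -0.03 after quantile normalization. ERF43 (DREB2D) had 3.502 and 3.15, then 3.27 and 4.14, then 3.47 and 3.30, overlapping. OsERF078, better known as FRIZZY PANICLE (FZP), a regulator of panicle branching, had 3.07 and 2.51, then 3.20 and 2.70, then 3.49 and 3.37. It cleared control at 24 h alone, by 0.64 ± 0.34 in the deposited and in the quantile-normalized values (limma adjusted p = 0.312 and 0.433).

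Of 6 WRKY genes 0 passed, 5 read higher at each time on the deposited scale (medians 0.33 and 0.55), and 3 did after quantile normalization (medians -0.04 and -0.02). OsWRKY24 (LOC4327518), known as a repressor of gibberellin and abscisic acid responses in rice aleurone cells, had the largest difference. It had 4.08 and 5.01 at 0 h, 6.53 and 5.61 at 6 h, and 5.96 and 5.97 at 24 h, with all treated arrays above both control arrays. The differences were 1.52 ± 0.43 (2.87-fold, limma adjusted p = 0.116) and 1.42 ± 0.43 (2.67-fold, adjusted p = 0.120), and 0.99 and 0.79 after quantile normalization. The 2 arrays lay 0.94 apart at 0 h and 0.92 apart at 6 h.

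OsWRKY76 and OsWRKY62 are direct neighbours with 0 protein-coding genes between them, and both are known as negative regulators of resistance in rice. OsWRKY76 (LOC4347069) had 3.15 and 3.59 at 0 h, 4.74 and 4.45 at 6 h, and 4.15 and 4.22 at 24 h, with all treated arrays above control. It differed by 1.23 ± 0.31 (2.34-fold, limma adjusted p = 0.0918) and by 0.81 ± 0.31 (adjusted p = 0.187), and by 1.04 and 0.52 after quantile normalization. OsWRKY62 (LOC4347070), also named XB10 as a partner of the immune receptor XA21, had 4.81 and 4.28, then 3.86 and 3.70, then 4.14 and 4.58. Its 6 h arrays lay below both control arrays (-0.76 ± 0.33, limma adjusted p = 0.259, and -1.13 after quantile normalization), and its 24 h arrays overlapped them (-0.18 ± 0.33). The signs of the neighbours at 6 h were thus opposite in the deposited values, after quantile normalization and after cyclic loess, and the difference between them was not tested.

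OsWRKY71 (LOC4328512), a WRKY factor known from defence and from gibberellin repression, had 9.03 and 8.95, then 9.41 and 9.11, then 9.05 and 9.13. Its treated arrays lay just above control, by 0.27 ± 0.29 and 0.10 ± 0.29, less than the model's error, and the 24 h difference was -0.13 after quantile normalization (0.06 at 6 h). WRKY51, known as its partner in gibberellin repression, had 6.94 and 5.74, then 6.72 and 6.65, then 6.52 and 6.91, and overlapped at both times. WRKY9 had 5.37 and 4.57, then 5.71 and 4.87, then 5.55 and 5.83, above control at 24 h alone (0.72 ± 0.41, and 0.08 after quantile normalization).

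**Figure D4:**
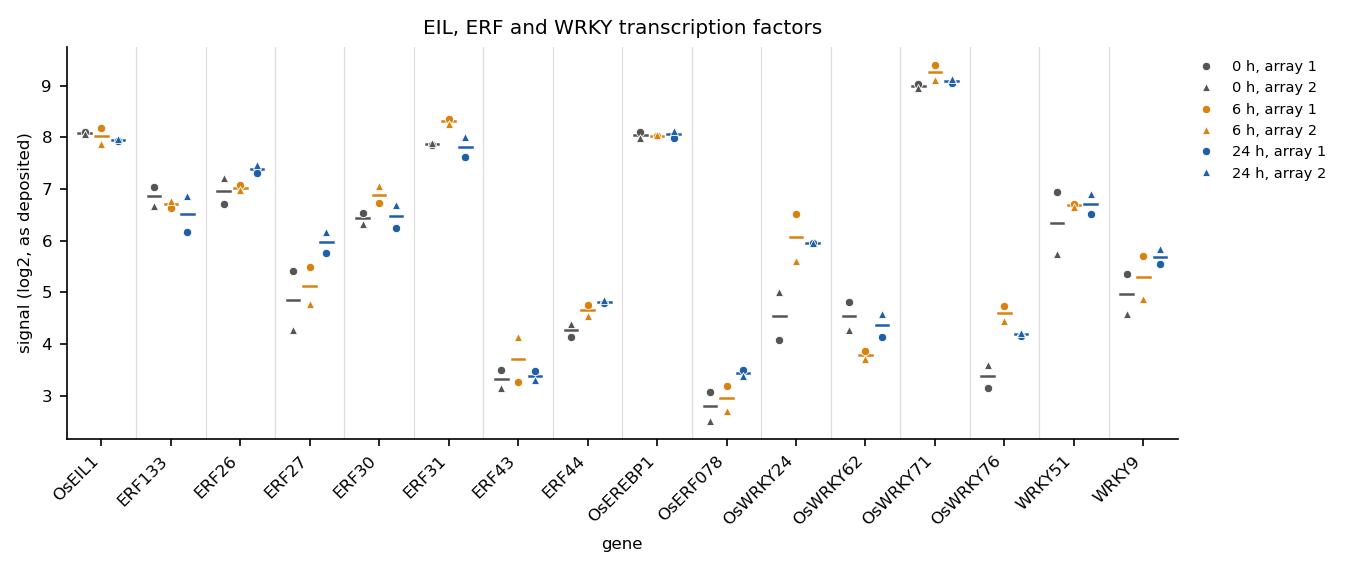
Deposited log2 signal (y axis) of OsEIL1, 9 ERF and 6 WRKY genes (x axis) on each array, with circles for the first and triangles for the second array of a time and a short line at the mean of the 2 arrays. OsEIL1 and OsEREBP1 stay near 8 at all times, and the neighbours OsWRKY76 and OsWRKY62 read in opposite directions at 6 h.

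Between 6 h and 24 h 0 of the 43 genes passed. Of 10 JAZ genes 7 read lower at 24 h than at 6 h (median -0.16, and -0.21 after quantile normalization), with both 24 h arrays below both 6 h arrays for 5 of them and above for 1, where 14.5% of probe sets lay below and 18.2% above. All 43 genes had a median of -0.07. The highest difference was that of ERF27 (0.84 ± 0.45) and the lowest that of ACO1.

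**Figure D5:**
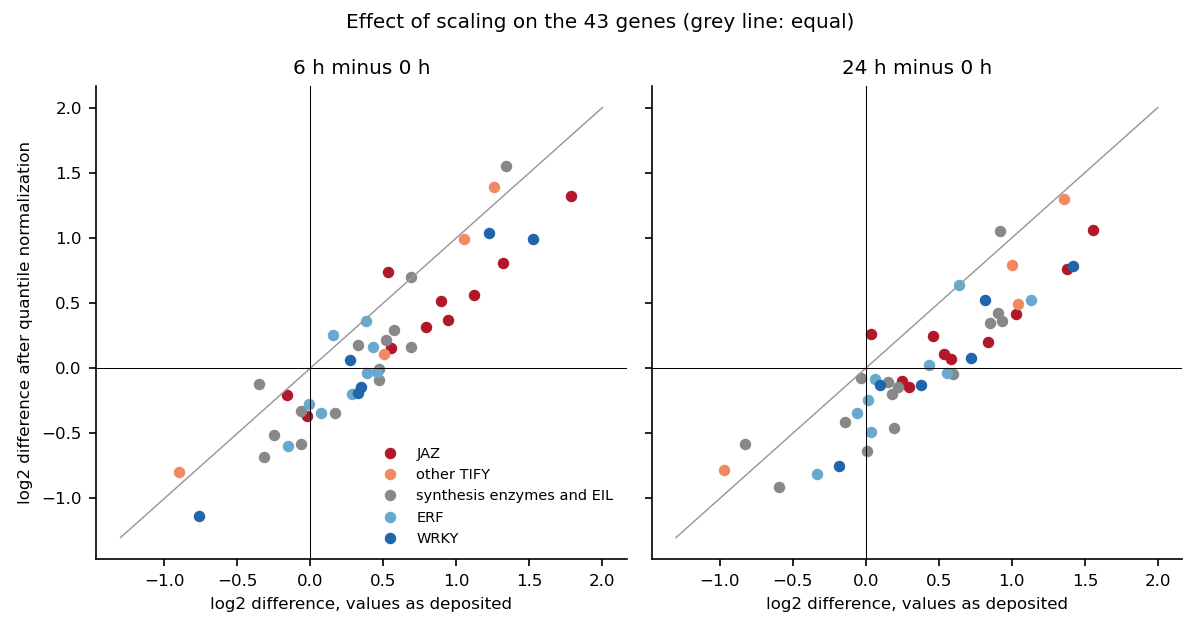
Log2 difference from 0 h in the deposited values (x axis) and after quantile normalization (y axis) of the 43 genes at 6 h (left) and 24 h (right), coloured by family, with a grey line where both are equal. Most points lie below the line, and OsTIFY10a moves from 1.78 to 1.32 at 6 h, while LOX9 moves from 1.34 to 1.55.

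Other genes of the same pathways were read from lists chosen by name. Of 7 further jasmonate genes 0 passed at either time, with 4 reading higher at 6 h and 6 at 24 h. BHLH148, a factor known to bind a JAZ protein in rice, had 7.56 and 7.35 at 0 h, 8.49 and 8.62 at 6 h, and 8.20 and 8.30 at 24 h, a difference of 1.095 ± 0.29 at 6 h (limma adjusted p = 0.0993), or 0.79 after quantile normalization. The jasmonate receptor gene COI1A had 5.11 and 4.84, then 5.54 and 4.36, then 6.16 and 6.14, level at 6 h (-0.02 ± 0.41) and above control at 24 h (1.18 ± 0.41, adjusted p = 0.159), or -0.54 and 0.54 after quantile normalization. Of 5 further genes matched by name to the ethylene list 0 passed, with 4 reading higher and 1 lower at each time. ERS1, named after its values were seen, lay above control on all treated arrays of the deposited scale. It differed by 0.88 ± 0.30 at both times (limma adjusted p = 0.165 and 0.148). OsSK2 and AP37 were matched by the symbols SK2 and AP37 alone, which does not show a part in ethylene signalling. OsSK2 differed by 1.28 ± 0.43 at 6 h and 0.82 ± 0.43 at 24 h, and AP37 by -1.22 ± 0.34 and -0.95 ± 0.34. After quantile normalization OsSK2 was at 0.79 and 0.22 and AP37 at -1.37 and -1.07. The control arrays of OsSK2 read 5.32 and 4.04, a gap about as large as its 6 h difference. Without the first 0 h array its differences were 1.92 and 1.46, and without the second 0.64 and 0.18. AP37 had 3.28 and 3.88 at 0 h and 2.16 to 2.77 on the treated arrays, low signals whose distance from background is unknown.

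Of 17 genes matched by name to the immune list 1 passed, at 24 h, where 3.08% of all genes passed. Whether each of the 17 acts in immunity was not tested. At 6 h 14 read higher and 3 lower, and at 24 h 13 and 4, where 61.4% and 64.3% of all genes read higher. PBZ1 read lower at both times (-1.26 ± 0.88 and -1.20 ± 0.88), with control arrays at 6.58 and 3.76. The MAP kinase gene MPK8, also known as OsWJUMK1, had 4.59 and 4.45 at 0 h, 6.17 and 5.72 at 6 h, and 6.34 and 6.35 at 24 h. It rose at 24 h by 1.83 ± 0.30 (3.55-fold, limma adjusted p = 0.0357) after 1.43 ± 0.30 at 6 h (adjusted p = 0.0626). After quantile normalization the 24 h difference was 1.25 (limma adjusted p = 0.124), and the call was also lost without either 6 h array (adjusted p = 0.0649) or either 24 h array (0.404 and 0.297). These alternatives for pathway genes were added after the data were seen, and over them MPK8's limma adjusted p at 24 h ran from 0.0233 to 0.404. MPK10 differed by 1.44 ± 0.30 and 1.26 ± 0.30 and MPK14 by 1.37 ± 0.28 and 0.98 ± 0.28, and neither passed. After quantile normalization they differed by 0.92 and 0.64 and by 0.84 and 0.41. In the comparison of both treated times with 0 h, added after the values were seen, 4 of the 17 passed as higher, MPK7, MPK8, MPK10 and MPK14. In that comparison 4.4% of probe sets and 7.21% of all genes passed as higher. MPK7 was named after its values were seen. After quantile normalization these 4 genes no longer passed (limma adjusted p from 0.0752 to 0.198). Both 6 h arrays lay above both control arrays for 11 of the 17 genes, and at 24 h for 11, against 34.3% and 42.6% of all genes. They lay below for 1 of the 17 at each time, against 14.6% and 16.3%.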

How the data were processed

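Total RNA of rice roots was labelled with biotin and hybridised to Affymetrix arrays, 2 at each of 3 times. The authors deposited summarised signals per probe set on a log2 scale (the base is read from the range, 0.65 to 13.36), made with Affymetrix Expression Console per the submitters' processing notes. The sources used here give no version, background correction or normalization. No detection call was used, and the number of arrays limits the precision.

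Gene names came from the platform annotation of the probe sets (15299 with 1 gene, 436 with several, 26035 with none) and synonyms of the RefSeq assembly ASM3414082v1, which held all 43 genes. JAZ numbers there conflict between genes, so TIFY names are used. Differences were fitted with limma 3.58.1 (R 4.3.3), 1 mean per time over 6 arrays, 3 residual and 5.08 prior degrees of freedom, with Benjamini-Hochberg adjustment over 41770 probe sets at 0.05. The fit was tested on simulated data. Python 3.11.15 drew the plots.

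The rule for naming took genes that passed, OsTIFY10a, OsWRKY76 and OsEIL1, and in each family the highest and lowest means and the 4 smallest p, which gave 28. The other members are named so that all 43 are accounted for. Members and lists were chosen with earlier results of these data known. From the lists, 2 genes that matched by name alone (an actin and DAD-1) were dropped, while OsSK2 and AP37, matched by their symbols alone, were kept. Alternatives were quantile normalization, cyclic loess, median centring, an intensity trend with robust estimation, leaving out dim probe sets, a replicate block, fits to 4 arrays and leaving out each array. Promoter sequences were not analysed here.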

Additional observations from a re-analysis of the deposited data

How the results depend on the processing

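With 2 arrays per time, 1 array can decide a call, and the background signal is unknown. The number of the 43 genes that passed fell from 1 to 0 at 6 h and at 24 h after quantile normalization, after cyclic loess and in fits to 4 arrays, and was 2 at 24 h with median centring and with the dimmest probe sets left out. Leaving out 1 array gave 0 to 2 at either time. With both treated times together, the 3 that passed became 0 after quantile normalization or cyclic loess, 6 with median centring, and 0 to 5 with 1 array left out. At 24 h against 6 h 0 passed in every setting run.

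Probe sets that passed at 6 h numbered 641, against 81 after quantile normalization, 119 after cyclic loess, 1146 with median centring, 1062 with an intensity trend, 81 with 4 arrays and 0 to 2249 with 1 array left out. At 24 h the 925 became 24 after quantile normalization, 52 after cyclic loess, 0 with 4 arrays and 0 to 2793 with 1 array left out. With both times together 2298 became 420 after quantile normalization, 286 after cyclic loess and 80 to 4011 with 1 array left out. The median over the 43 genes went from 0.43 to 0.107 and 0.0441 at 6 h, from 0.43 to -0.0340 and -0.0558 at 24 h, and from 0.40 to 0.0359 and -0.0469 for both times, after quantile normalization and cyclic loess in turn. With 1 array left out it ran from 0.23 to 0.57 at 6 h. The cause was not tested.

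With the replicate number as a block, 0 of the 43 genes passed at 6 h and at 24 h (OsTIFY10a had a limma adjusted p of 0.0544 and 0.0583), and 384 and 570 probe sets did. Same-numbered arrays deviated together with correlations of 0.05, 0.03 and 0.16 over probe sets, so they are taken to share a number only.

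Of 1420 values of 28 genes under alternatives, 40 lost a call, 14 gained one, and 0 that passed in either setting changed sign. Another 120 that passed in neither setting changed sign, 53 of them under quantile normalization or cyclic loess and 60 with 1 array left out. Averaging probe sets of a gene was not run, since 0 of the 43 genes had several.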
